A study of Mus musculus with 9 samples.

Results

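Clock output genes carry the timing of the circadian clock into the physiology of the liver, and 10 of them were followed here across 9 mouse liver arrays. They were the PAR bZIP activators Dbp, Tef and Hlf, the repressor Nfil3, the bHLH repressors Bhlhe40 and Bhlhe41, and the effectors Usp2, Wee1, Rgs16 and Upp2. The genes were chosen from known clock-controlled genes while results of these same arrays were in view. The high values of Usp2, Dbp, Rgs16 and Tef in T-Co against NT-Co were among those results, and which others weighed in the choice is not recorded. Every difference from NT-Co is therefore given as a description, with no p-value printed. Calls against NT-Co say only on which side of the limma threshold a value lay, and are not a test of the chosen genes. The p-values between T-TSU and T-Co assume that this comparison did not enter the choice. All 10 genes were on the array, out of 12393 genes that a probe set (a group of short probes read as 1 value) named alone. They had 19 probe sets, of which 18 in 9 genes passed the filter on low values, and Bhlhe41 did not.

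The 9 livers formed 3 groups of 3. NT-Co livers came from mice without tumour given vehicle. T-Co livers came from mice bearing TK-4, a human colon cancer grown in the cecal wall, and given vehicle, and T-TSU livers from TK-4-bearing mice given TSU68, an oral inhibitor of receptor tyrosine kinases, at 400 mg/kg daily in divided oral doses. The implanted animals were BALB/c nu/nu males, which lack a thymus and so mature T cells, and were 6 weeks old when implanted. Dosing ran for 1 week from day 7. The strain, sex, age and any operation of the NT-Co mice are not stated separately, so these and the implantation itself cannot be told apart from the tumour. The labels number the samples without saying that each is a separate animal, so p-values cover only the spread among these samples, which may be technical. The sources used here do not give the hour at which livers were taken or whether the mice had fed, and a difference between groups in either cannot be told apart from one of tumour or drug.

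In the mammalian clock, the CLOCK and ARNTL (BMAL1) activators bind E-boxes and drive their own repressors, the PER and CRY proteins, and the nuclear receptors NR1D1 and NR1D2. The same activators drive Dbp, whose protein, like TEF and HLF, activates genes through D-boxes, while NFIL3 represses through the same element. In liver these outputs are known for strong daily rhythms and for timing drug, bile acid and nucleoside metabolism. The PAR bZIP genes and Arntl peak at opposite times of day in normal mouse liver.

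The tissue read as liver, since 9 of 10 hepatocyte markers were measured, none below an intensity of 6860. Array medians lay between 107 and 119, and arrays correlated at 0.932 to 0.960 with each other. For beta-actin the ratio of 3' to 5' probe set intensity, which reflects how intact the RNA was, lay at 2.26 to 3.14 (NT-Co), 1.88 to 2.10 (T-Co) and 1.79 to 2.16 (T-TSU), so every NT-Co array lay above the others. Summed hepatocyte marker intensity was 231895 to 253791 (NT-Co), 288909 to 293068 (T-Co) and 231483 to 259679 (T-TSU), with 4 of 9 higher by limma in T-Co against NT-Co. The macrophage sum (10 of 10 markers measured) was 7392 to 10250.0, 10094 to 15999 and 4490.2 to 10201, and the endothelial sum (8 of 8) 1003 to 1232, 1223 to 1880 and 883 to 1399, each with 1 marker higher in T-Co. The neutrophil sum (7 of 8) was 540.4 to 849.8, 799 to 2189 and 424 to 813, with 0 called. The stellate sum (7 of 7) was 5503 to 5595, 4385 to 4861 and 4536 to 5761, and the erythroid sum (2 of 5) 1942 to 2364, 308 to 1026 and 1155 to 2144, each with 1 marker lower in T-Co. Cholangiocyte (4 of 5) and lymphocyte (5 of 6) sums stayed at 306 or below on every array, and no marker of any list was at 0. The part of RNA integrity and cell composition in the results was not tested. In bulk RNA, fewer cells of a type and less RNA per cell cannot be told apart.

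Dbp, Tef, Usp2, Upp2 and Rgs16 were several-fold higher in both tumour-bearing groups than in NT-Co, and Wee1 was high in T-TSU. In T-Co against NT-Co, 5 of the 9 tested genes were higher and 0 lower by limma at an adjusted p under 0.05, beside 3.59% of 9223 tested genes higher and 2.78% lower. In T-TSU against NT-Co, 7 were higher and 0 lower, beside 2.07% and 1.57%, the additional ones being Hlf and Wee1. In T-TSU against T-Co none of the 9 was called, beside 0.0434% higher and 0.0108% lower over all genes. At an unadjusted limma p under 0.05 there were 3 of the 9, beside 1066 of the 9223 tested genes. The median log2 difference of the 9 genes was 1.71 in T-Co against NT-Co, 2.80 in T-TSU against NT-Co and 0.33 in T-TSU against T-Co, where the medians over all tested genes were -0.02, -0.01 and 0.00. For 7 genes every T-Co array lay above every NT-Co array (13% of all genes above, 13.7% below) and for 8 genes every T-TSU array did (11.5% above, 12.6% below). Every T-TSU array lay above every T-Co array for 1 gene, Wee1 (7.08% above, 7.59% below). Because the genes were chosen with T-Co differences known, nothing is read from these counts for the comparisons with NT-Co, which share the NT-Co arrays.

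**Figure D1:**
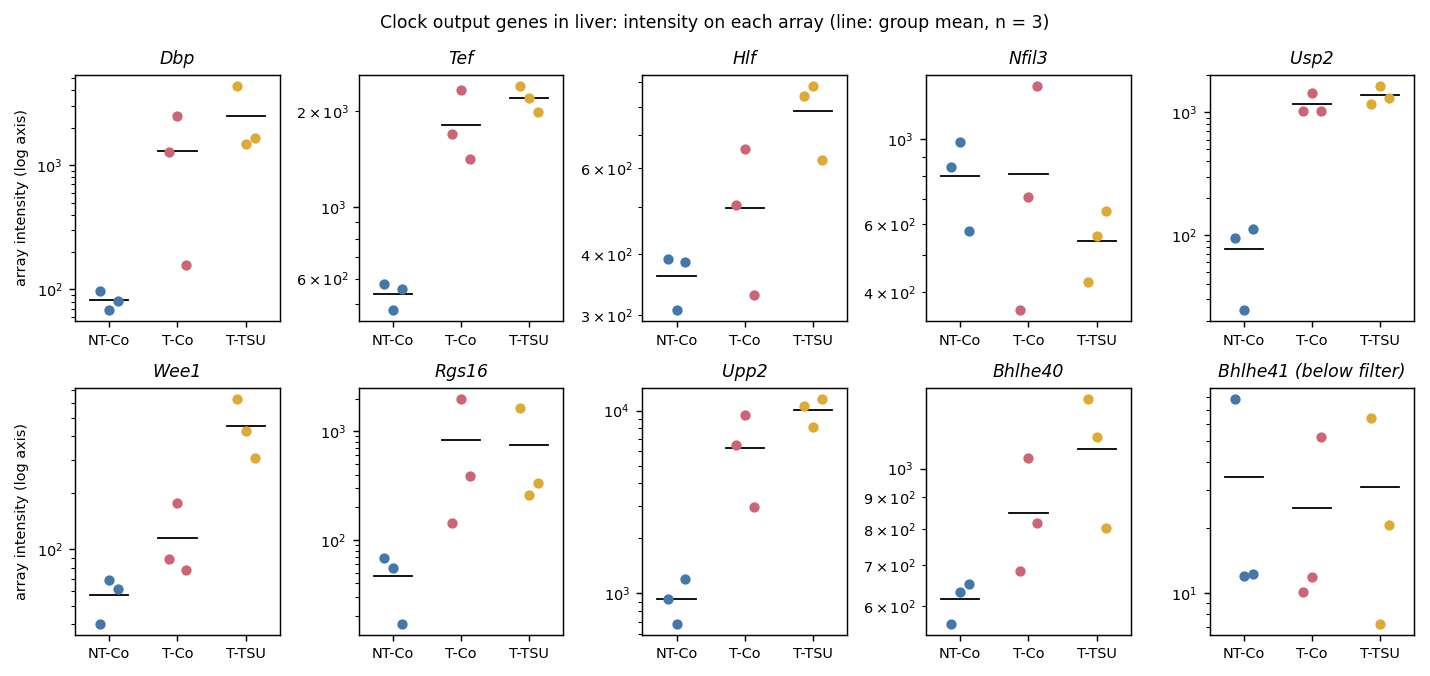
Intensity on each array (log axis, own range per panel) for the brightest probe set of each clock output gene, with points for the 3 arrays of a group and a line at the group mean. Dbp, Tef, Usp2, Rgs16 and Upp2 lie above every NT-Co array in both tumour-bearing groups, Wee1 stands highest in T-TSU (308 to 629), and the Bhlhe41 panel is from a probe set below the filter.

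The PAR bZIP activators had differences of unlike size. Values per array are given in the order of replicates 8, 10 and 11 for NT-Co, 9, 10 and 13 for T-Co, and 2, 12 and 14 for T-TSU. Dbp, the most strongly rhythmic gene of the family in mouse liver, had intensities of 97.4, 68.1 and 81.1 (NT-Co), 1263, 2465 and 158 (T-Co) and 4343, 1466 and 1652 (T-TSU). All 6 tumour-bearing livers lay above all NT-Co livers, and T-Co replicate 13, at 158, was far below the other T-Co livers. The log2 difference was 3.17 ± 0.74 (SE) in T-Co and 4.62 ± 0.74 in T-TSU against NT-Co, 9.01-fold and 24.6-fold. A further Dbp probe set gave 4.02 ± 0.62 and 5.13 ± 0.62, sizes that are uncertain because its NT-Co values of 25.9, 47.0 and 39.1 lay around the filter level of 36.2. Without T-Co replicate 13 the T-Co difference of the brightest probe set was 4.31 ± 0.41, and without T-Co replicate 10 it was 2.36 ± 0.68. The T-Co call ended without T-Co replicate 9 or 10 or without any single NT-Co array, with differences of 2.36 to 3.29. It also ended without the intensity trend and with a robust trend, and the robust trend ended the T-TSU call too.

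Tef, a thyrotroph embryonic factor by name and a D-box activator in liver, had intensities of 579, 478 and 559 (NT-Co), 1692, 2328 and 1421 (T-Co) and 2396, 2194 and 1988 (T-TSU). The groups with tumour did not overlap with NT-Co, and spread little among themselves. The differences from NT-Co were 1.71 ± 0.18 in T-Co and 2.01 ± 0.18 in T-TSU, or 3.27-fold and 4.03-fold. The other probe sets of Tef gave 3.29 ± 0.29 and 1.41 ± 0.44 in T-Co, and 3.85 ± 0.29 and 1.13 ± 0.44 in T-TSU. The last of these probe sets was dim and was called in neither comparison. The probe set with the larger difference had NT-Co values of 9.32 to 15.2, under the filter level, so the size of that difference is uncertain. That probe set passed the filter only through its tumour-bearing arrays, so its direction adds no support.

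Hlf, the hepatic leukemia factor, had intensities of 391, 307 and 386 (NT-Co), 504, 657 and 329 (T-Co) and 843, 884 and 624 (T-TSU). T-Co overlapped with NT-Co, and T-TSU lay above NT-Co. The difference was 0.40 ± 0.24 in T-Co and 1.09 ± 0.24 in T-TSU against NT-Co, with only the second called. That call was lost without any single NT-Co array, without T-TSU replicate 2 or 12, and without the intensity trend (0.98 to 1.15). The other probe set of Hlf differed by -0.16 ± 0.25 in T-Co and by 0.35 ± 0.25 in T-TSU against NT-Co and was not called, so the probe sets of this gene did not give the same picture.

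**Figure D2:**
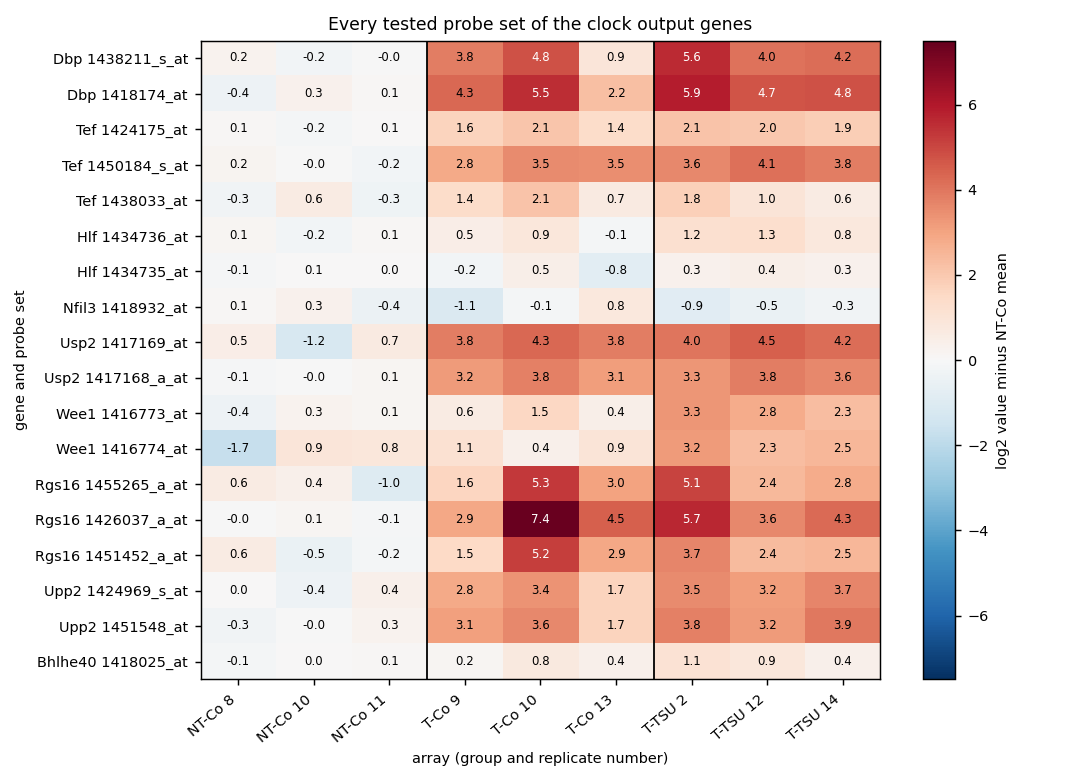
Log2 value minus the NT-Co mean (colour and number) for each of the 18 tested probe sets (rows) on each array (columns, vertical lines between groups). The 2 Dbp, 2 Usp2, 3 Rgs16 and 2 Upp2 probe sets are above 0 on every tumour-bearing array, T-Co replicate 13 has the lowest values of Dbp and Upp2 among these arrays, and the probe sets of Hlf differ from each other.

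The promoter letters of these activators are shown because, of the tested genes with a window, Tef alone held an E-box beside its start. Start-site windows of 250 bases before to 50 after, from RefSeq (GRCm38.p6), were held for 8 of the 10 genes in 10 windows, and not for Wee1 and Bhlhe40. They were searched on both strands for the E-box CACGTG, the D-boxes TTATGTAA and TTACGTAA, and the nuclear receptor core AGGTCA, to which NR1D and ROR receptors bind. The E-box was in both Tef windows and the Bhlhe41 window, where 7.15% of 32851 windows hold it. The receptor core was in 1 of the Upp2 windows, in 2 copies, and in the Nfil3 window (16.3% of windows), and the D-box in none of the 10 (1.06%). No match overlapped another motif. These are descriptions of letters in a short window. In the stretches below, read 5′ to 3′ on the gene's strand, capitals mark the motif, and the Nfil3 motif reads as its reverse complement TGACCT.
Tef, before the upstream start, chr15:81802503-81802582 (+ strand): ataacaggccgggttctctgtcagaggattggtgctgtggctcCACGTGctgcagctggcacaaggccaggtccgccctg
Tef, before the internal start, chr15:81811234-81811313 (+ strand): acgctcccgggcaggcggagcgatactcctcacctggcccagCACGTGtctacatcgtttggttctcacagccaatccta
Bhlhe41, chr6:145865536-145865615 (− strand): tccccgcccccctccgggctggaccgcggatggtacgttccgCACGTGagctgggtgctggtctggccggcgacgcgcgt
Upp2, before the internal start, chr2:58754979-58755048 (+ strand): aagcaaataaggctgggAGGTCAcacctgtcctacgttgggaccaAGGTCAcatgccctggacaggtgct
Nfil3, chr13:52981040-52981064 (− strand): cggcgctcggaacTGACCTactaac
The upstream Tef and the Bhlhe41 stretches lie before the annotated gene, and the other 3 lie within the span of a longer annotated form of the gene. The E-box began 127 and 138 bases before the Tef starts and 153 before that of Bhlhe41, and the Upp2 receptor cores began 188 and 160 bases before its internal start.

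Neither tested repressor, Nfil3 or Bhlhe40, was called in any comparison in the main setting. Nfil3, which competes with the PAR bZIP proteins for D-boxes, had intensities of 849, 983 and 577 (NT-Co), 359, 707 and 1377 (T-Co) and 426, 560 and 649 (T-TSU). The 3 groups overlapped, and the widest spread, 3.83-fold, was within T-Co, where replicate 13 was the highest of all 9 arrays. The difference was -0.15 ± 0.38 in T-Co and -0.54 ± 0.38 in T-TSU against NT-Co, neither called. Without T-Co replicate 13 the T-Co difference was -0.63 ± 0.30, and without T-Co replicate 9 it was 0.33, and without NT-Co replicate 10 it was 0.01, so its sign turned on single arrays.

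Bhlhe40 (DEC1), which represses E-box genes, had intensities of 563, 632 and 652 (NT-Co), 684, 1039.6 and 818 (T-Co) and 1294, 1124 and 803 (T-TSU). Its tumour-bearing arrays all lay above NT-Co, by a small step. The differences of 0.44 ± 0.20 and 0.77 ± 0.20 from NT-Co were not called, the second lying near the threshold and passing under 7 of the alternatives run. Bhlhe41 (DEC2), its close relative, lay between 7.24 and 78.4 on the 9 arrays with groups that overlapped, and was not tested.

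Among the effectors, Usp2 was high in every tumour-bearing liver. This deubiquitinating enzyme, whose substrates include clock proteins, had intensities of 94.9, 24.5 and 111 (NT-Co), 1024, 1427 and 1029 (T-Co) and 1175, 1647 and 1308 (T-TSU). The lowest tumour-bearing liver was thus far above the highest NT-Co liver. The differences from NT-Co were 3.97 ± 0.39 and 4.22 ± 0.39, 15.7-fold and 18.7-fold, and 3.36 ± 0.21 and 3.58 ± 0.21 by the further probe set. The size rested in part on NT-Co replicate 10, the lowest of its group, without which the differences were 3.38 ± 0.21 and 3.63 ± 0.21.

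Upp2, the liver uridine phosphorylase that splits uridine into uracil and ribose 1-phosphate, had intensities of 926, 683 and 1191 (NT-Co), 6469, 9422 and 2957 (T-Co) and 10634.5, 8187 and 11572 (T-TSU). The tumour-bearing livers did not overlap with NT-Co, and the lowest of them was again T-Co replicate 13. The differences were 2.62 ± 0.34 in T-Co and 3.45 ± 0.34 in T-TSU, 6.16-fold and 10.9-fold, and the further probe set gave 2.80 ± 0.38 and 3.64 ± 0.38. Without T-Co replicate 13 the T-Co difference was 3.09 ± 0.23.

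Rgs16, which speeds the inactivation of G proteins and is rhythmic and feeding-responsive in liver, had intensities of 69.0, 55.3 and 17.1 (NT-Co), 144, 1983 and 391 (T-Co) and 1658, 257 and 336 (T-TSU). T-Co replicate 10 and T-TSU replicate 2 were several-fold above the other arrays of their groups, a spread of 13.8-fold in T-Co and 6.44-fold in T-TSU. The groups with tumour did not overlap with NT-Co, where values were near the filter level, so the sizes are uncertain. The differences were 3.32 ± 0.85 and 3.43 ± 0.85, called in the main setting. Its T-Co call was lost without any 1 NT-Co array, without T-Co replicate 10 (2.31 ± 0.73) or 13, and without T-TSU replicate 14. Its T-TSU call was lost without any 1 NT-Co or T-TSU array (2.61 to 3.93). Both calls were also lost with a pseudocount of 50 (2.56 and 2.64), without the intensity trend and with a robust trend, and the T-TSU call without the filter on low values. The other Rgs16 probe sets gave 4.94 ± 0.87 and 3.22 ± 0.72 in T-Co, and 4.51 ± 0.87 and 2.82 ± 0.72 in T-TSU, the last not called. Their NT-Co values were 4.14, 5.83 and 3.60 for the former and 36.9, 12.7 and 17.7 for the latter. Nearly all were under the filter level, so these sizes have little meaning. Both probe sets passed the filter only through their tumour-bearing arrays, so their direction adds no support.

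Wee1 was the only tested member for which every T-TSU array lay above every T-Co array. It encodes a kinase that restrains entry into mitosis by inhibiting CDK1, and is under clock control in regenerating mouse liver. Its intensities were 40.4, 68.8 and 61.8 (NT-Co), 89.4, 176 and 77.9 (T-Co) and 629, 425 and 308 (T-TSU), so the 3 groups stood in 3 separate steps. The difference from NT-Co was 0.86 ± 0.34 in T-Co, not called, and 2.80 ± 0.34 in T-TSU, called. The dimmer probe set gave 0.82 ± 0.61 and 2.67 ± 0.61. Its T-Co values of 68.2, 37.0 and 58.8 overlapped with its NT-Co values of 2.52, 57.3 and 53.4. The step from NT-Co to T-Co was thus separate in the brightest probe set alone.

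**Figure D3:**
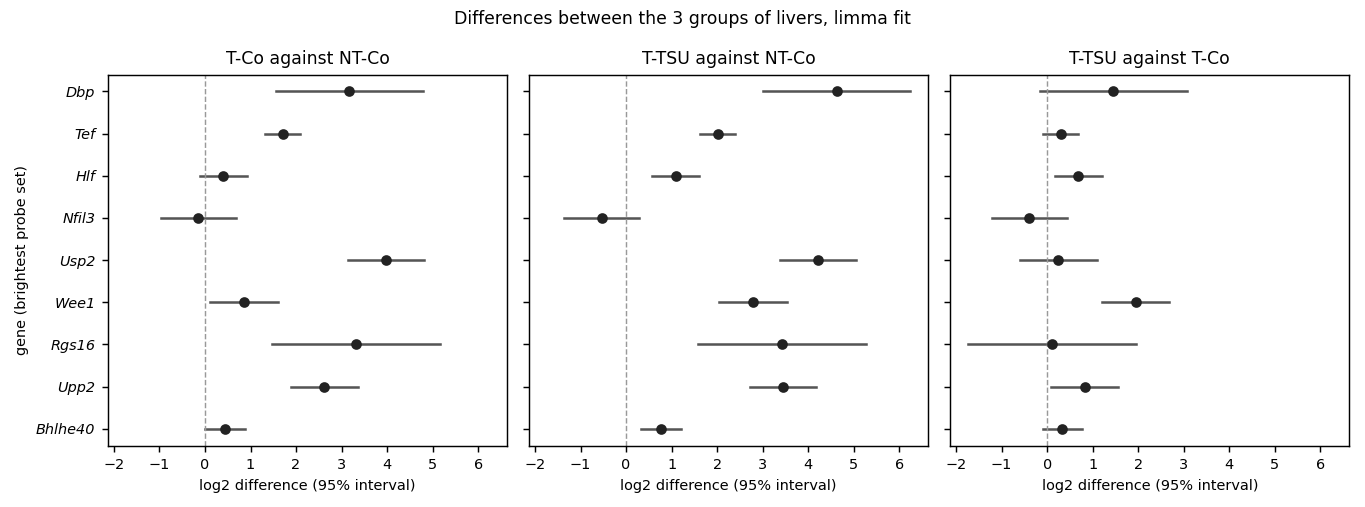
Log2 differences (points) with 95% intervals from the limma fit (bars, unadjusted) for the 9 tested genes in each comparison. Against NT-Co most points lie well above 0 in both tumour-bearing groups, while against T-Co the Wee1 interval, 1.19 to 2.69, is the one farthest from 0.

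Setting T-TSU against T-Co asks how TSU68 changed the liver of mice with the tumour, and it shares the T-Co arrays with differences known when the genes were chosen. Wee1 was the nearest to a call, with a difference of 1.94 ± 0.34 (3.84-fold, adjusted p = 0.0651), each T-TSU array lying above each T-Co array. It passed without T-Co replicate 10 (2.28 ± 0.33, adjusted p = 0.0426) and with a pseudocount of 50 (1.61, adjusted p = 0.0432). Over its alternatives the adjusted p-value ran from 0.0426 to 0.319, the highest value being that of the dimmer probe set (1.85 ± 0.61). For the brightest probe set it reached 0.309 without the intensity trend and 0.301 without T-TSU replicate 2.

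Dbp differed by 1.45 ± 0.74 between T-TSU and T-Co (adjusted p = 0.531), with a 95% interval from -0.17 to 3.07. Without T-Co replicate 13 this difference was 0.31 ± 0.41. Upp2 differed by 0.83 ± 0.34 (0.09 to 1.56, adjusted p = 0.408), and by 0.36 ± 0.23 without that array. Both differences thus rested largely on T-Co replicate 13. Over all alternatives run the adjusted p-value was 0.190 to 0.905 for Dbp and 0.127 to 0.766 for Upp2.

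Hlf differed by 0.69 ± 0.24 (0.17 to 1.20, adjusted p = 0.336) and Tef by 0.30 ± 0.18 (-0.09 to 0.68, adjusted p = 0.601). Usp2 differed by 0.25 ± 0.39 (-0.59 to 1.09, adjusted p = 0.873) and Bhlhe40 by 0.33 ± 0.20 (-0.10 to 0.77, adjusted p = 0.604). The intervals of Usp2 and Bhlhe40 leave room for a difference in either direction. Nfil3 differed by -0.39 ± 0.38 (-1.21 to 0.43, adjusted p = 0.772). Rgs16 differed by 0.11 ± 0.85 (-1.73 to 1.96, adjusted p = 0.979), the widest interval of the 9. In the order of levels, T-TSU and T-Co were thus neighbours that overlapped for 8 of the 9 tested genes.

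The arrays of a group were not alike, and the labels do not say whether each came from a separate animal. The ratio of the highest to the lowest array was widest in T-Co for 7 of the 9 genes, while for Usp2 it was widest in NT-Co (4.55) and for Bhlhe40 in T-TSU (1.61). T-Co replicate 10 had the highest value in its group for 8 of the 9 genes, and replicate 13 the lowest for 5 and the highest for 1, Nfil3. On the log2 scale relative to the NT-Co mean, Dbp stood at 3.83, 4.79 and 0.89 for replicates 9, 10 and 13 of T-Co, and Nfil3 at -1.11, -0.15 and 0.81. Subtracting the Nfil3 from the Dbp value of each liver gave 4.94, 4.94 and 0.09 in these 3 livers, and 6.47, 4.53 and 4.49 in T-TSU replicates 2, 12 and 14. The value of replicate 13 thus lay within the NT-Co range of -0.56 to 0.43, and the other 5 tumour-bearing livers lay above it. Usp2 was at 3.82 in replicate 13, beside 3.81 and 4.29 in the other T-Co livers, so the genes of that liver did not all stand low. Beta-actin's ratio was 1.88 in replicate 13 and 1.97 and 2.10 in replicates 9 and 10.

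**Figure D4:**
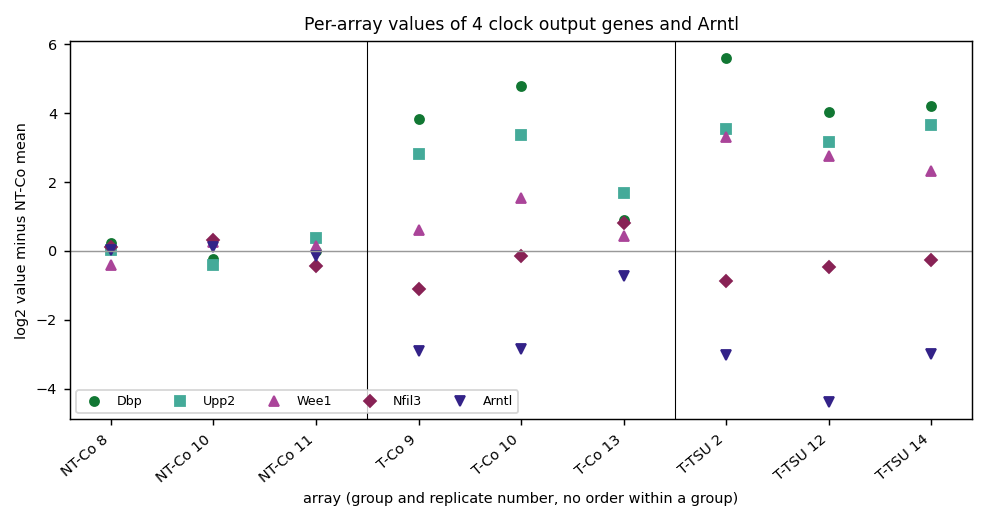
Log2 value minus the NT-Co mean on each array for Dbp, Upp2, Wee1, Nfil3 and the clock activator Arntl (arrays in no order within a group). T-Co replicate 13 has Dbp at 0.89 and Arntl at -0.72, where T-Co replicates 9 and 10 have Dbp at 3.83 and 4.79 and Arntl at -2.91 and -2.86.

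Core clock genes, from which these outputs take their timing, were given beside them. Of 16 listed, 13 were measured and 12 tested, with 4 higher and 1 lower in T-Co against NT-Co, 5 and 2 in T-TSU against NT-Co and 0 in T-TSU against T-Co by limma (3 at an unadjusted p under 0.05). Their median log2 differences were 0.45, 0.45 and 0.11. Over all genes 3.59% were higher and 2.78% lower, 2.07% and 1.57%, and 0.0434% and 0.0108% in these comparisons. In the last, 1066 of 9223 genes had an unadjusted p under 0.05. The list was drawn up with earlier results of these arrays known. Arntl, the activator partner of CLOCK, had intensities of 503, 532 and 437 (NT-Co), 58.1, 60.7 and 293 (T-Co) and 53.2, 15.7 and 54.1 (T-TSU), and differed by -2.16 ± 0.53 and -3.47 ± 0.53 from NT-Co. T-Co replicate 13 was thus nearest to NT-Co for Arntl as for Dbp. The repressor genes Per3 (2.14 ± 0.46 and 2.81 ± 0.46), Per1 (2.10 ± 0.40 and 1.69 ± 0.40) and Cry2 (1.32 ± 0.34 and 1.37 ± 0.34) rose against NT-Co in T-Co and T-TSU. So did the nuclear receptor gene Nr1d2 (1.76 ± 0.21 and 2.14 ± 0.21). Nr1d1 (1.27 ± 0.45 and 0.76 ± 0.45) was not called. Clock (-0.61 ± 0.29 and -1.50 ± 0.29) and Per2 (0.39 ± 0.19 and 1.11 ± 0.19) were called in T-TSU alone, Clock lower and Per2 higher. Npas2 lay under the filter and was not tested. Its intensities were 162, 51.7 and 94.7 (NT-Co), 1.94, 1.87 and 9.54 (T-Co) and 3.84, 38.4 and 3.47 (T-TSU).

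Genes linked to PAR bZIP proteins in liver were too few for their count to stand apart from that over all genes. Of 9 listed, 6 were tested, with 0 called by limma in each of the 3 comparisons, beside the 3.59% higher and 2.78% lower over all genes in T-Co against NT-Co. At an unadjusted p under 0.05 there were 2 in T-Co against NT-Co, 1 in T-TSU against T-Co and 2 in T-TSU against NT-Co. Over all 9223 genes there were 2019, 1066 and 1524. The 6 genes had median differences of 0.60 in T-Co against NT-Co, -0.18 in T-TSU against T-Co and 0.13 in T-TSU against NT-Co. Cyp7a1, the rate-limiting enzyme of bile acid synthesis, differed by 1.44 ± 0.43 in T-Co and 1.62 ± 0.43 in T-TSU against NT-Co. Its T-Co arrays overlapped with NT-Co, and its T-TSU arrays did not. The differences of Alas1, of haem synthesis, were 0.55 ± 0.28 and 0.39 ± 0.28, and those of the drug-sensing receptor gene Nr1i3 0.41 ± 0.13 and 0.50 ± 0.13. The cytochrome P450 genes Cyp2b10 (1.05 ± 0.57 and -0.12 ± 0.57), Cyp2c37 (0.66 ± 0.46 and -0.52 ± 0.46) and Cyp2c50 (0.02 ± 0.12 and -0.18 ± 0.12) lay above 0 in T-Co and below 0 in T-TSU against NT-Co, none of them called.

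Other rhythmic liver genes went both ways. Of 8 tested, 3 were higher and 1 lower in T-Co against NT-Co, 3 and 2 in T-TSU against NT-Co, and 0 were called in T-TSU against T-Co (3 at an unadjusted p under 0.05), with medians of 0.64, 0.90 and 0.14. The shares over all genes are those given beside the core clock list, and this list too was drawn up with earlier results known. Nampt, which makes an NAD precursor, rose by 1.66 ± 0.23 and 1.98 ± 0.23, and the tetraspanin gene Tspan4 by 0.98 ± 0.19 and 0.94 ± 0.19. Noct, which encodes nocturnin, rose in T-Co (1.60 ± 0.33) and differed by 0.85 ± 0.33 in T-TSU, and the glycogen synthase gene Gys2 differed by 0.54 ± 0.22 in T-Co and rose by 1.08 ± 0.22 in T-TSU. Elovl3, a fatty acid elongase, fell by 4.20 ± 0.40 in T-Co and by 3.49 ± 0.40 in T-TSU, and Avpr1a, a vasopressin receptor, had a difference of -1.09 ± 0.31 in T-Co and fell by 1.78 ± 0.31 in T-TSU. Cdkn1a, the cell cycle inhibitor p21, differed by -0.78 ± 0.79 and -1.63 ± 0.79 and was not called.

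**Figure D5:**
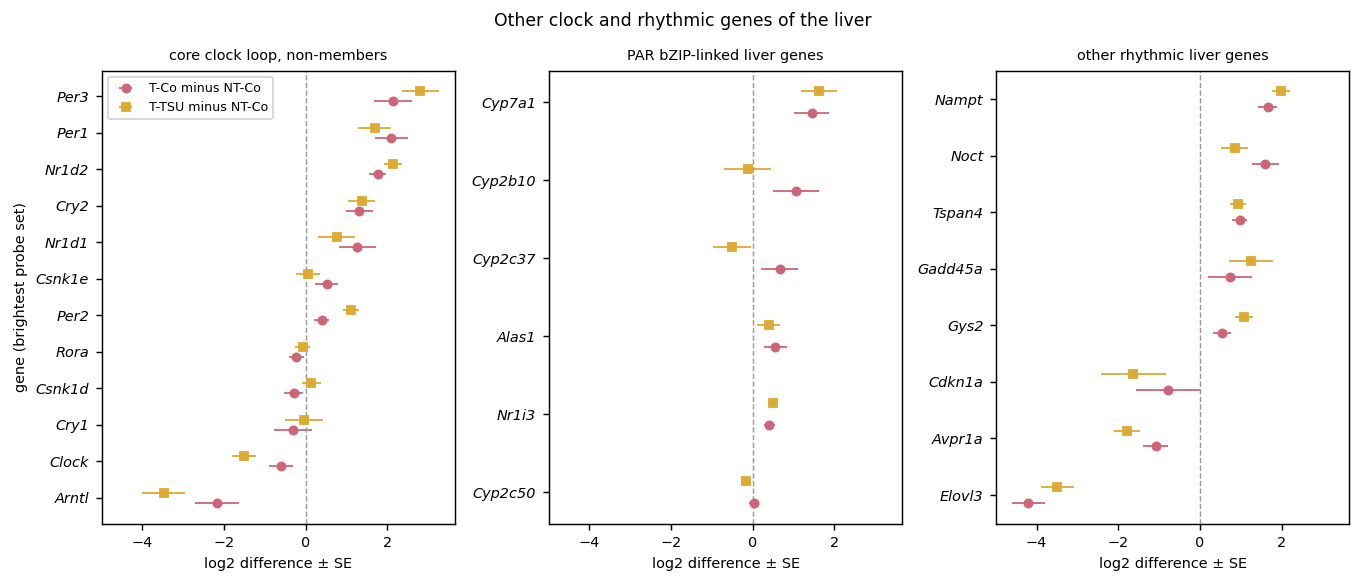
Log2 difference ± SE from NT-Co for T-Co (circles) and T-TSU (squares) of the tested genes in 3 lists, the core clock loop, genes linked to PAR bZIP proteins and other rhythmic liver genes. Arntl (-2.16 and -3.47) and Elovl3 (-4.20 and -3.49) lie lowest in their panels, and Per3, Per1 and Nr1d2 highest in the first.

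The genes most like 3 of the members were found by Pearson's r of log2 values over the 9 arrays among 9214 other genes, as a description of arrays that share the same 3 groups. Those nearest to Dbp were the alanine aminotransferase gene Gpt2 (r = 0.979), the phosphodiesterase gene Gpcpd1 (0.978) and the parathyroid hormone receptor gene Pth1r (0.970). Gpcpd1 shared the unevenness of Dbp in T-Co, with mean intensities (± SD, n = 3) of 1224 ± 178 for NT-Co, 3570 ± 2267 for T-Co and 4635 ± 567 for T-TSU. Those nearest to Usp2 were Hnrnpab (0.981), Rcc2 (0.967) and Zfp292 (0.962), all with log2 differences between 0.58 and 0.95 from NT-Co, well below the 3.97 and 4.22 of Usp2. Those nearest to Nfil3 were Rab11a (0.951), Rplp0 (0.938) and Myo7a (0.922). Their log2 differences were -0.10 to 0.03 in T-Co and -0.57 to -0.092 in T-TSU against NT-Co, beside -0.15 and -0.54 for Nfil3.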

How the data were processed

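Total RNA of 9 livers was labelled with biotin and hybridised to 3' expression arrays, 1 per sample, per the labels' protocols. The deposited values are linear array intensities, 1 per probe set. Their software was not given in the sources used here, and each array's mean after trimming 2% at each end was 500.3, so the authors had scaled them. Of 22690 probe sets, 64 controls were left out, and 20380 of the others had 1 gene in the platform annotation. Values were analysed as log2(intensity + 7.92), the 10th percentile of all values, which understates the change of dim genes. Probe sets with a mean log2 value under the 30th percentile (intensity 36.2) were removed, leaving 15838. A group-means model of all 9 arrays (limma 3.58.1, R 4.3.3, 6 residual degrees of freedom, intensity trend) gave two-sided tests, adjusted by Benjamini-Hochberg over all probe sets, with a threshold of 0.05. Differences are log2 ± SE. A gene is represented by its brightest probe set, and all probe sets of members are given. Of other lists up to 6 tested genes with the largest T-Co difference were named. Clock, Per2, Gys2 and the untested Npas2 were added after their values were seen. The members and lists were chosen with earlier results of these data known. Alternatives were the pseudocount, filter, trend, normalization, groups fitted, probe set and each array left out. The fit was tested on simulated data. The number of arrays limits the precision.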

Additional observations from a re-analysis of the deposited data

How the results depend on the processing

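The number of member genes called in T-Co against NT-Co was 5, and fell to 3 without the intensity trend, to 3 with a robust trend, and ranged from 3 to 5 with 1 array left out. In T-TSU against T-Co the count was 0, and 1 (Wee1) with a pseudocount of 50, and 0 to 1 with 1 array left out. In T-TSU against NT-Co it was 7, and 5 to 8 under the alternatives. Counts against NT-Co only describe how stable the calls were, since the genes were chosen with T-Co differences in view. Of 513 member differences recomputed, 457 kept their direction and side of the threshold, 37 were no longer past it, 9 newly passed and 10 changed sign, none of the last being called. With 1 array left out, Nfil3 ran from -0.63 to 0.33 in T-Co against NT-Co and from -0.87 to 0.089 in T-TSU against T-Co, and Rgs16 from -0.74 to 1.12 in T-TSU against T-Co. Other probe sets gave -0.28 for Tef and -0.43 and -0.39 for Rgs16 in T-TSU against T-Co, and -0.16 for Hlf in T-Co against NT-Co. The cause of these changes was not tested. No paired analysis was made, since the labels give no pairing of samples between groups. Signals near background limit the sizes for Rgs16, Usp2, Wee1 and the dimmer probe sets of Dbp and Tef in NT-Co.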
